A study of Saccharomyces cerevisiae Vin13 with 18 samples.

Results

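The 7 genes described here encode regulators that yeast uses when it meets stress or stops dividing: the kinase gene RIM15, the endosulfine genes IGO1 and IGO2, and the transcription factor genes GIS1, MSN2, MSN4 and HSF1. They were chosen by name for their known roles, with earlier results of these data known, and are 7 of the 5449 Saccharomyces cerevisiae genes measured on the arrays. Each member had 1 probe set, and each was above the array background on all 18 arrays.

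The wine strain VIN13 fermented Chardonnay must at 20 °C after inoculation at an OD600 of 0.1, either in commercial tanks of 300 L or in laboratory vials of 80 ml, which the labels call microaerobic. Tanks were sampled on day 2 (exponential growth), day 5 (early stationary phase) and day 10 (late stationary phase), and vials on the same days and in the same phases. Each of the 6 groups had 3 biological replicates, for 18 arrays in all. The tanks and vials shared the strain, must, temperature and inoculum, and no genetic change or added agent is named in the labels. The study used 1 strain and 1 must, and scale stands here for everything that differed between the tanks and the vials.

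Rim15 is a protein kinase on which several nutrient signals converge: protein kinase A, TORC1 with Sch9, and the cyclin-dependent kinase Pho80-Pho85 all restrain it. When nutrients run out, Rim15 phosphorylates the small proteins Igo1 and Igo2, which then inhibit the phosphatase PP2A bound to Cdc55 and shield certain mRNAs from decay. Gis1 is a JmjC-domain factor acting on post-diauxic shift elements, Msn2 and Msn4 are paralogous zinc-finger factors acting on stress response elements, and Hsf1 is the essential heat shock factor that drives chaperone genes. All of these proteins are controlled to a large extent by phosphorylation and location in the cell, which an mRNA array does not measure.

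Values are log2 signals from the deposited probe set intensities, and a difference of 1 is a doubling. Levels are compared between groups for the same gene, never between genes, because probe sets differ in their response. Differences were tested with limma over all 5449 genes with Benjamini-Hochberg adjustment, and "called" means an adjusted p under 0.05. These p-values rest on 1 spread per gene, pooled over the 3 biological replicates of all 6 groups and moderated across genes by limma. They do not rest on the replicates of the compared groups alone. The arrays give relative signals: fewer cells of a kind and less RNA per cell cannot be told apart. Tank replicate 2 of day 10 stood apart, with a lowest correlation of 0.974 within its group against 0.990 to 0.995 in the other 5 groups. Control probe sets also moved with day and scale: the 3′ minus 5′ log2 signal, averaged over 8 control transcripts, was 0.83 ± 0.06, 1.15 ± 0.09 and 1.36 ± 0.09 in tanks on days 2, 5 and 10, and 1.00 ± 0.03, 1.46 ± 0.07 and 1.78 ± 0.07 in vials (SD, n = 3 each). Their part in the results below was not tested.

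The 7 regulators are set here in 3 groups. HSF1, GIS1 and RIM15 rose between days 2 and 10 at both scales, and by more in tanks. IGO1 did so too, by 1.65 in tanks and 0.84 in vials, and is set with IGO2 for its lower signal in tanks. HSF1 and GIS1 were lower in tanks on day 2 and higher in tanks on days 5 and 10, with the day 10 call of HSF1 lost in 14 of 28 alternative settings. IGO1 and IGO2 were lower in tanks on all 3 days, but with a trend on coding length removed IGO2 was no longer called on days 2 (0.01) and 5 (-0.21). The paralogues MSN2 and MSN4 parted: MSN2 was lower in tanks on day 2 alone, while MSN4 was higher in tanks on every day.

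**Figure D1:**
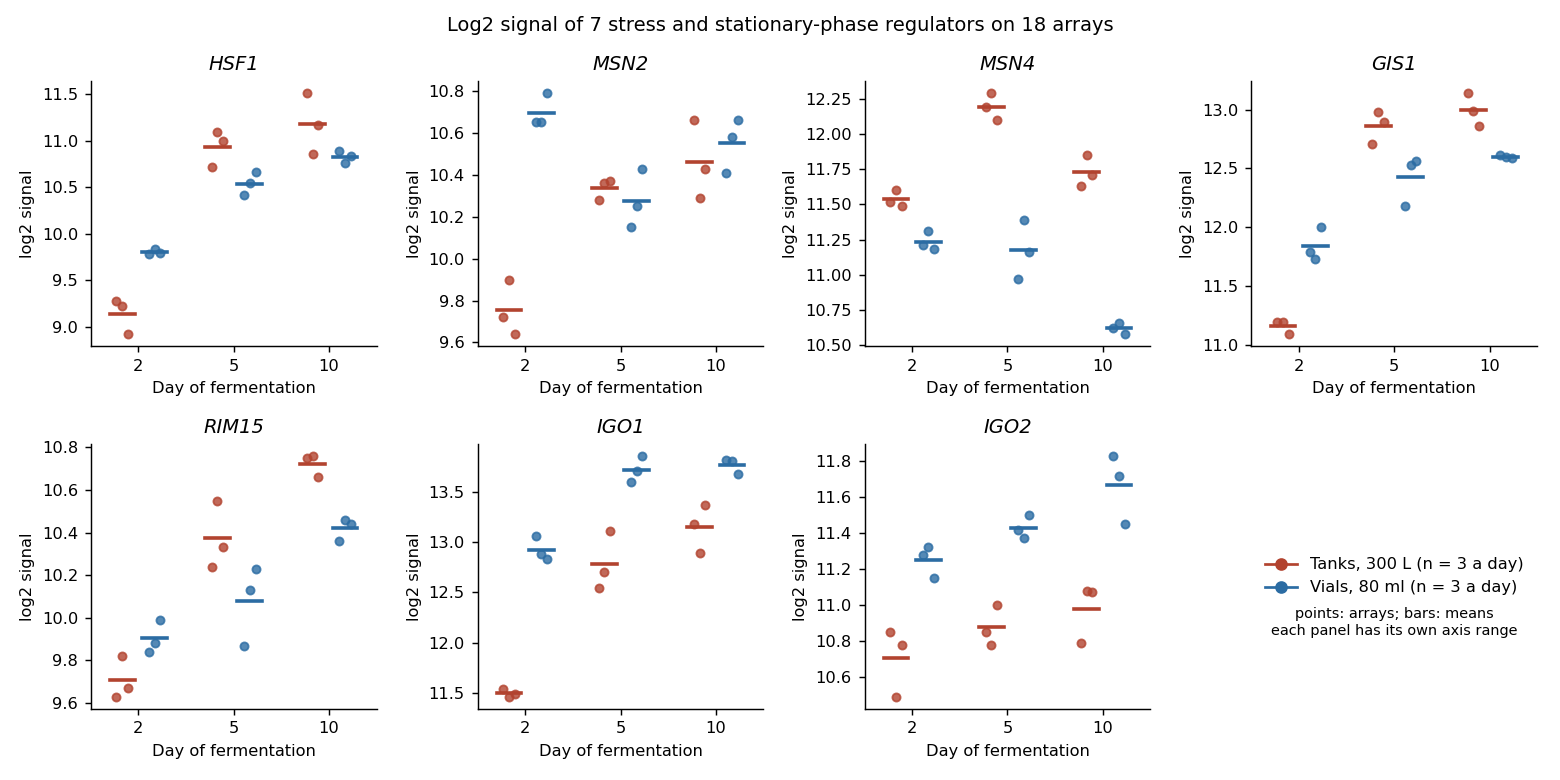
Log2 signal (vertical axes, a separate range in each panel) of the 7 regulators by day of fermentation, in tanks (red, left of each pair) and vials (blue); points are arrays and bars are means of n = 3. HSF1 and GIS1 are lowest in day 2 tanks and highest in day 10 tanks, while the 3 MSN4 points of each tank day lie above those of the vials on the same day.

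Counted together, 1 of the 7 genes was higher in tanks on day 2 and 5 were lower, where 77.3% of all genes were called (38.2% higher and 39.1% lower). On day 5, 4 were higher in tanks and 2 lower (61.9% of all genes called, 33.1% higher and 28.8% lower), and on day 10 the counts were again 4 and 2 (58.7% called, 32.3% higher and 26.4% lower). The tank and vial arrays of a member did not overlap for 7, 6 and 5 of the genes on days 2, 5 and 10, against 82.2%, 66.2% and 61.6% of all genes. With most genes of the array called and only 7 members, these counts are no result about the regulators. The median scale difference of the 7 was -0.66, 0.30 and 0.30, beside -0.01, 0.02 and 0.03 over all genes.

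Between days 2 and 5 in tanks, 6 of the 7 rose and none fell (73.3% of all genes called, 34.2% higher and 39.1% lower). In vials 3 rose and 1 fell (67.6% called, 26.5% higher and 41.1% lower). Between days 5 and 10 fewer members moved: 2 rose and 1 fell in tanks (39.0% called, 15.3% higher and 23.6% lower), and 1 rose and 1 fell in vials (30.7% called, 11.3% higher and 19.5% lower). The tank count was 1 without tank replicate 1 of day 5, and the vial count was 1 without vial replicate 1 of day 5 or replicate 2 of day 10. Over the whole course, day 10 against day 2, 6 rose and none fell in tanks (78.8% called, 35.5% higher and 43.3% lower), and 5 rose and 1 fell in vials (73.4% called, 27.1% higher and 46.3% lower). The median change of the 7 over days 2 to 5 was 0.66 in tanks and 0.18 in vials, beside medians of -0.05 and -0.16 over all genes.

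RIM15 (YFL033C), the kinase at the head of this pathway, read 9.63, 9.82 and 9.67 in tanks and 9.84, 9.88 and 9.99 in vials on day 2. On day 5 it read 10.24, 10.55 and 10.33 in tanks and 9.87, 10.13 and 10.23 in vials. The values of day 10 were 10.75, 10.76 and 10.66 in tanks and 10.36, 10.46 and 10.44 in vials. The tank values lay just below the vial values on day 2 and above them on days 5 and 10, without overlap on any day. The scale difference was -0.19 (SE 0.10, adjusted p = 0.0931) on day 2, 0.30 (adjusted p = 0.019) on day 5 and 0.30 (adjusted p = 0.0184) on day 10. The last of these missed the threshold without the tank array that stood apart (0.28, adjusted p = 0.0501) or without vial replicate 1 of day 10 (0.27, adjusted p = 0.0625). That of day 5 missed it without tank replicate 2 of day 5 (0.21, adjusted p = 0.111) or vial replicate 1 (0.19, adjusted p = 0.117). It also did so in a limma fit of only the groups compared (0.30, adjusted p = 0.0768).

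Over time RIM15 went up in steps. In tanks it rose by 0.66 (SE 0.10, adjusted p = 1.80e-05) between days 2 and 5 and by another 0.35 (adjusted p = 0.0127) between days 5 and 10. In vials the first step was 0.17 (adjusted p = 0.139) and the second 0.35 (adjusted p = 0.0172). The first vial step was called in 4 of 28 settings, at 0.28 (adjusted p = 0.0226) without vial replicate 1 of day 5 and at 0.24 to 0.27 in the other 3. The second call was lost in tanks without tank replicate 1 of day 5 (0.29, adjusted p = 0.0682), and in vials without vial replicate 1 of day 5 (0.24, adjusted p = 0.0922) or replicate 2 of day 10 (0.33, adjusted p = 0.0585). Fitting only the groups compared also lost the second call in tanks (0.35, adjusted p = 0.0638). The change over days 2 to 5 was larger in tanks by 0.49 (SE 0.14, adjusted p = 0.00846). From the highest to the lowest group mean the order was day 10 tanks, day 10 vials, day 5 tanks, day 5 vials, day 2 vials and day 2 tanks. Of these neighbours, day 10 vials overlapped with day 5 tanks, and day 5 vials with day 2 vials.

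IGO1 (YNL157W), a target of Rim15, read 11.54, 11.46 and 11.49 in tanks and 13.06, 12.88 and 12.83 in vials on day 2. On day 5 the values were 12.54, 12.70 and 13.11 in tanks and 13.60, 13.71 and 13.86 in vials. Those of day 10 were 13.18, 12.89 and 13.37 in tanks and 13.82, 13.81 and 13.68 in vials. Every tank array was below every vial array of its day, and the gap narrowed from -1.43 (SE 0.14, adjusted p = 7.79e-08) on day 2 to -0.94 (adjusted p = 2.28e-05) on day 5 and -0.62 (adjusted p = 0.001) on day 10. On day 2 IGO1 was 2.69-fold lower in tanks.

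IGO2 (YHR132W-A), the paralogue of IGO1, read 10.85, 10.49 and 10.78 in tanks and 11.28, 11.32 and 11.15 in vials on day 2. On day 5 it read 10.85, 10.78 and 11.00 in tanks and 11.42, 11.37 and 11.50 in vials. On day 10 the values were 10.79, 11.08 and 11.07 in tanks and 11.83, 11.72 and 11.45 in vials. The groups did not overlap on any day, with scale differences of -0.54 (SE 0.12, adjusted p = 4.98e-04), -0.56 (adjusted p = 7.04e-04) and -0.69 (adjusted p = 1.25e-04). Both endosulfine genes are short, with coding lengths of 507 nt for IGO1 and 396 nt for IGO2. The median scale difference over the 899 genes under 600 nt was -0.40, -0.31 and -0.25 on days 2, 5 and 10, against 0.09, 0.11 and 0.10 over the 3685 genes of 900 nt or more. With a smooth trend on coding length removed from each array, IGO1 was still called on day 2 at -0.95, whereas IGO2 stood at 0.01 (adjusted p = 0.928) on day 2 and at -0.21 (adjusted p = 0.118) on day 5. The IGO2 call of day 10 was kept under that setting.

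With time the endosulfine genes differed. IGO1 rose between days 2 and 5 by 1.29 in tanks (adjusted p = 2.49e-07) and by 0.80 in vials (adjusted p = 6.86e-05), both without overlap. Between days 5 and 10 IGO1 differed by 0.36 in tanks (adjusted p = 0.0466), where the groups overlapped and the call was lost in 17 of 28 alternative settings, and by 0.05 in vials (adjusted p = 0.825). IGO2 changed little over days 2 to 5, by 0.17 in tanks (adjusted p = 0.213) and 0.18 in vials (adjusted p = 0.19), and no call was made at either scale. Over the whole course from day 2 to day 10 IGO2 rose by 0.42 in vials (adjusted p = 0.00466) and differed by 0.27 in tanks (adjusted p = 0.044), a call lost in 12 of 28 settings, among them the one without the tank array that stood apart (0.22, adjusted p = 0.127). IGO1 was highest in day 10 and day 5 vials, which overlapped. Day 10 tanks, day 2 vials and day 5 tanks followed, each overlapping with the next, and day 2 tanks were last and separate. For IGO2 all 3 vial groups ranked above all 3 tank groups, with day 10 and day 5 vials overlapping and the tank groups overlapping with their neighbours.

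GIS1 (YDR096W), a transcription factor of the post-diauxic phase that acts downstream of Rim15, read 11.19, 11.19 and 11.09 in tanks and 11.79, 11.73 and 12.00 in vials on day 2. On day 5 it read 12.71, 12.98 and 12.89 in tanks and 12.18, 12.53 and 12.56 in vials. On day 10 the values were 13.14, 12.99 and 12.86 in tanks and 12.61, 12.60 and 12.59 in vials. The tank arrays were all below the vial arrays on day 2 and all above them on days 5 and 10. The scale difference was -0.69 (SE 0.11, adjusted p = 2.90e-05) on day 2, 0.44 (adjusted p = 0.00277) on day 5 and 0.40 (adjusted p = 0.00615) on day 10. GIS1 rose 3.26-fold in tanks between days 2 and 5 (1.71, adjusted p = 9.38e-10) and 1.50-fold in vials (0.58, adjusted p = 2.14e-04). Between days 5 and 10 no call was made at either scale (0.14 in tanks, 0.18 in vials). Tanks of days 10 and 5 were the highest groups and overlapped, and every other neighbour in the order of vials of days 10, 5 and 2 and day 2 tanks was separate.

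HSF1 (YGL073W), the heat shock factor gene, read 9.27, 9.22 and 8.92 in tanks and 9.78, 9.83 and 9.79 in vials on day 2. Its values on day 5 were 10.72, 11.09 and 10.99 in tanks and 10.41, 10.54 and 10.66 in vials. On day 10 it read 11.51, 10.85 and 11.17 in tanks and 10.89, 10.76 and 10.83 in vials. As with GIS1, tanks were lower on day 2 and higher on day 5 without overlap. On day 10 the lowest tank array, replicate 2, lay within the range of the vials. The scale differences were -0.66 (SE 0.14, adjusted p = 4.09e-04), 0.40 (adjusted p = 0.0222) and 0.35 (adjusted p = 0.0449) on days 2, 5 and 10. The day 10 call was lost in 14 of 28 settings, most of all without tank replicate 1 (0.18, adjusted p = 0.255), and stood at 0.51 (adjusted p = 0.00369) without replicate 2. The day 5 call was lost in 4 of 28 settings, with an adjusted p of at most 0.0956.

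HSF1 rose by 1.80 in tanks between days 2 and 5 (SE 0.14, 3.48-fold, adjusted p = 7.24e-09), against 0.74 in vials (1.67-fold, adjusted p = 2.11e-04). Over days 5 to 10 it differed by 0.24 in tanks (adjusted p = 0.189) and by 0.29 in vials (adjusted p = 0.126). The tank value hung on single arrays of day 10: it was 0.08 (adjusted p = 0.716) without replicate 1 and 0.41 (adjusted p = 0.0166) without replicate 2. The order of its groups was that of GIS1, with day 10 tanks overlapping day 5 tanks and these overlapping day 10 vials. The 6 group means of HSF1 and GIS1, each centred, were 0.10 apart on average (root mean square, log2; Pearson r 1.00 over the 6 group means, which share their arrays). Among the genes with a standard symbol that were above background in at least 1 group, GIS1 was the second closest to HSF1, and HSF1 the closest to GIS1.

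MSN2 (YMR037C) read 9.72, 9.90 and 9.64 in tanks and 10.65, 10.65 and 10.79 in vials on day 2. On day 5 it read 10.28, 10.36 and 10.37 in tanks and 10.15, 10.25 and 10.43 in vials. Those of day 10 were 10.66, 10.29 and 10.43 in tanks and 10.41, 10.58 and 10.66 in vials. Day 2 tanks lay well below everything else, and on days 5 and 10 the scales overlapped. The day 2 difference was -0.94 (SE 0.11, 1.92-fold lower in tanks, adjusted p = 6.52e-07), against 0.06 (adjusted p = 0.659) on day 5 and -0.08 (adjusted p = 0.527) on day 10. Between days 2 and 5 MSN2 rose by 0.58 in tanks (adjusted p = 1.28e-04) and fell by 0.42 in vials (adjusted p = 0.00275), so its movement with time ran in opposite directions at the 2 scales. All groups but day 2 tanks overlapped with their neighbours in rank, from day 2 vials at the top to day 5 vials.

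MSN4 (YKL062W) read 11.52, 11.60 and 11.49 in tanks and 11.21, 11.31 and 11.18 in vials on day 2. Day 5 gave 12.19, 12.29 and 12.10 in tanks and 10.97, 11.39 and 11.16 in vials. On day 10 the values were 11.63, 11.85 and 11.71 in tanks and 10.62, 10.66 and 10.58 in vials. The tanks were above the vials on every day without overlap, by 0.30 (SE 0.10, adjusted p = 0.0109), 1.02 (adjusted p = 3.35e-07) and 1.11 (2.16-fold, adjusted p = 1.09e-07). In tanks MSN4 peaked on day 5: it rose by 0.66 between days 2 and 5 (adjusted p = 1.46e-05) and fell by 0.46 between days 5 and 10 (adjusted p = 0.0017). In vials it differed by -0.06 between days 2 and 5 (adjusted p = 0.602) and then fell by 0.56 (adjusted p = 6.23e-04). MSN4 was the only member called lower on day 10 than on day 5 at either scale. Its 3 tank groups ranked above its 3 vial groups, and only vials of days 2 and 5 overlapped among neighbours.

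**Figure D2:**
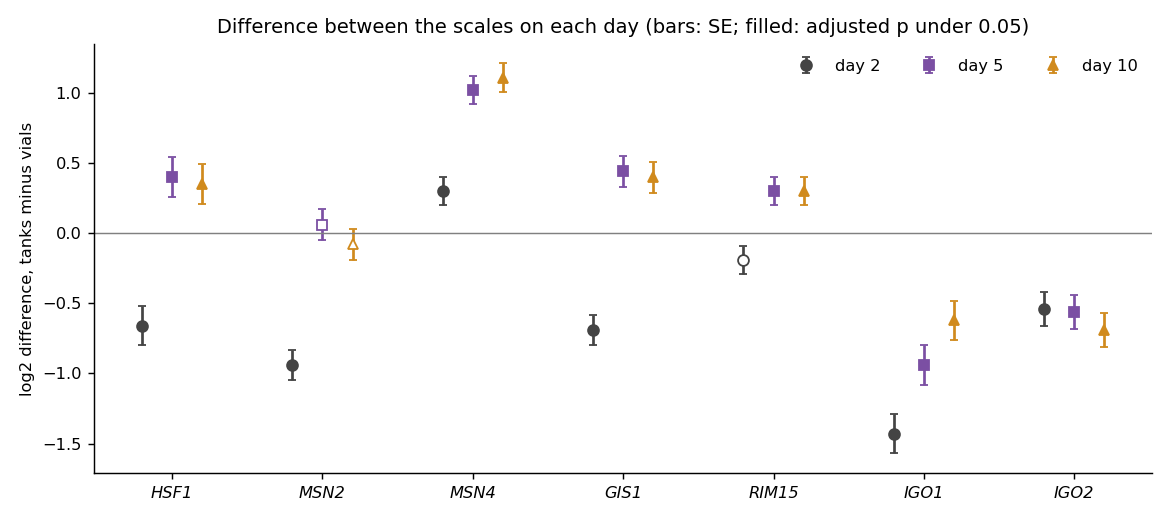
Log2 difference of tanks minus vials (vertical axis) for each regulator on days 2, 5 and 10; points are limma estimates from n = 3 arrays a group, bars are SE, and filled points have an adjusted p under 0.05. HSF1 and GIS1 lie below 0 on day 2 and above it on days 5 and 10, MSN4 lies above 0 on every day, and IGO1 and IGO2 lie below 0 on every day (IGO2 on day 2 stood at 0.01 with a trend on coding length removed).

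The change between days 2 and 5 itself differed between the scales for 6 of the 7 genes, and in each of the 6 it was more positive in tanks (58.8% of all genes called, 32.9% in that direction and 25.9% in the other). The excess in tanks was 1.13 for GIS1 (SE 0.16, adjusted p = 1.97e-05), 1.06 for HSF1 (SE 0.20, adjusted p = 3.02e-04) and 1.00 for MSN2 (SE 0.15, adjusted p = 4.65e-05). For these 3 genes that amounts to about a doubling of the ratio of tank to vial signal. MSN4 followed at 0.72 (adjusted p = 4.11e-04), then RIM15 at 0.49 (adjusted p = 0.00846) and IGO1 at 0.49 (adjusted p = 0.0389). The IGO1 call was lost in 10 of 28 settings, where its adjusted p went up to 0.18. For IGO2 the difference was -0.01 (SE 0.17, adjusted p = 0.957). The median of the 7 was 0.72, beside 0.08 over all genes. Over days 5 to 10 none of the 7 was called by limma (4.92% of all genes called, 2.62% more positive in tanks and 2.29% less), and the differences lay between -0.14 for MSN2 and 0.31 for IGO1. Over days 2 to 10 the same 6 genes were called as over days 2 to 5 (60.2% of all genes called, 33.7% more positive in tanks and 26.5% less), with values between 0.49 for RIM15 and 1.08 for GIS1, and both comparisons use the day 2 arrays. Without the tank array of day 10 that stood apart, the day 10 scale differences were 1.05 for MSN4, 0.40 for GIS1, -0.50 for IGO1, -0.74 for IGO2 and 0.00 for MSN2, and the first 4 of these were still called.

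**Figure D3:**
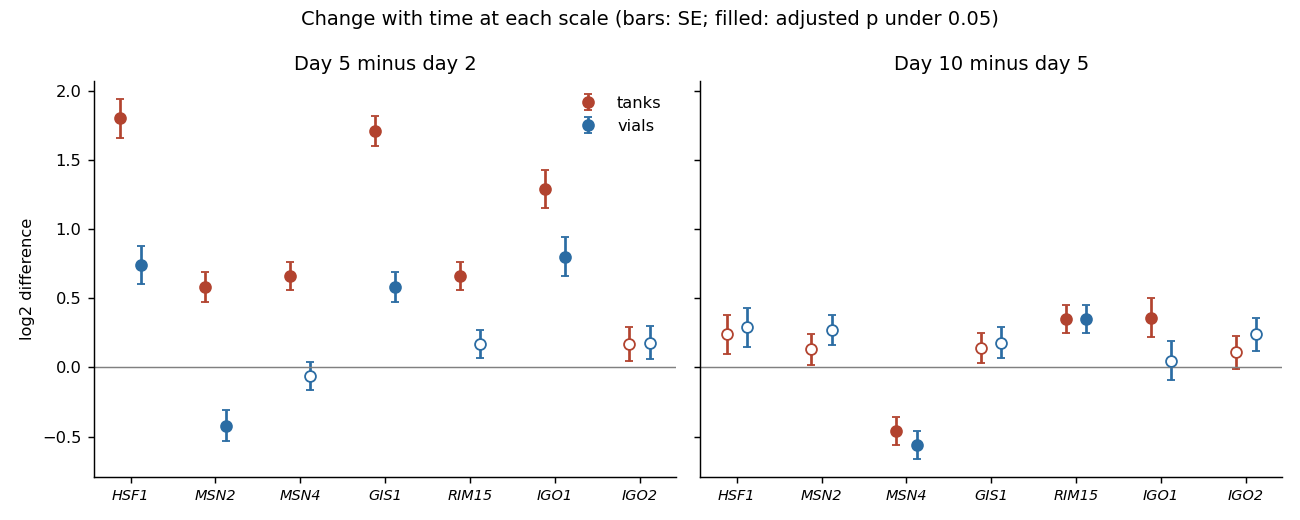
Log2 change (vertical axes) of each regulator between days 2 and 5 (left) and between days 5 and 10 (right), in tanks (red) and vials (blue); points are limma estimates from n = 3 arrays a group, bars are SE, and filled points have an adjusted p under 0.05. On the left HSF1 and GIS1 stand highest in tanks at 1.80 and 1.71, and MSN2 moves in opposite directions at the 2 scales; on the right MSN4 alone is below 0 at both scales.

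The paralogue pairs were also compared within arrays, as the log2 signal of MSN4 minus that of MSN2 and of IGO2 minus that of IGO1. The height of such a ratio depends on the probe sets, and only its differences between groups are read. MSN4 minus MSN2 was 1.78 ± 0.08, 1.86 ± 0.11 and 1.26 ± 0.30 in tanks on days 2, 5 and 10, and 0.54 ± 0.14, 0.90 ± 0.21 and 0.07 ± 0.15 in vials (SD, n = 3 each). Every tank array was above every vial array of its day, by 1.24, 0.96 and 1.19 on average. A two-sided exact permutation test on 1 day cannot go below p = 0.1 with 3 arrays against 3, and gave 0.1 on each day. With tanks and vials permuted within days over all 18 arrays, the mean difference of 1.13 had an exact p of 0.00025, the smallest that 8000 arrangements can give (0.0005 adjusted over the 2 ratios). The balance between these paralogues differed on all 3 days, with MSN2 making most of the difference on day 2 (-0.94, against 0.30 for MSN4) and MSN4 on days 5 and 10.

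IGO2 minus IGO1 behaved otherwise. It was -0.79 ± 0.16, -1.91 ± 0.21 and -2.16 ± 0.31 in tanks on days 2, 5 and 10, and -1.67 ± 0.11, -2.29 ± 0.09 and -2.10 ± 0.12 in vials (SD, n = 3 each). Tanks exceeded vials by 0.88 on day 2 and 0.38 on day 5, without overlap, and differed by -0.06 on day 10, where the arrays overlapped (exact permutation p = 0.1, 0.1 and 0.8). Over all days the mean difference was 0.40 (exact permutation p = 0.0123, also 0.0123 adjusted over the 2 ratios). Here too, arrays of different days were treated as independent.

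**Figure D4:**
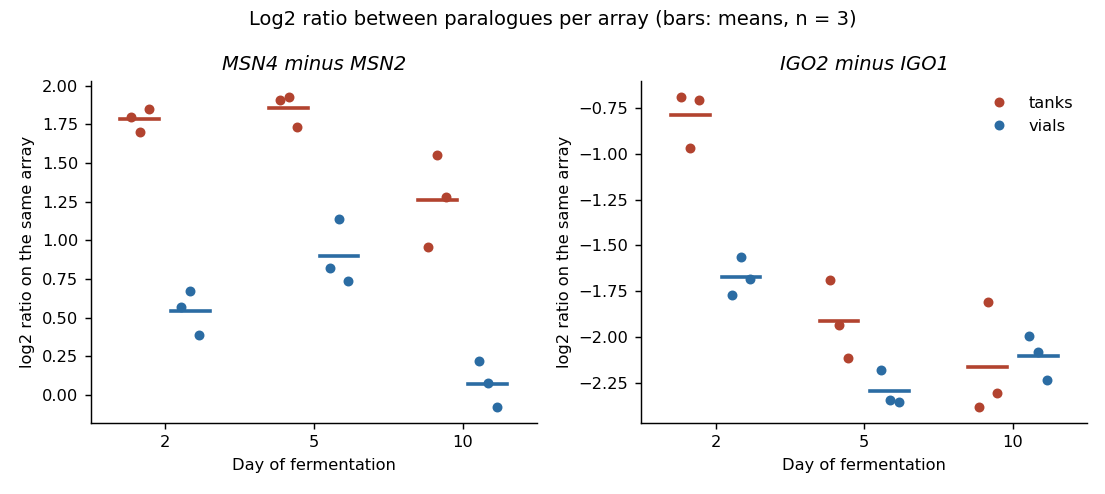
Log2 ratio on the same array (vertical axes) of MSN4 to MSN2 (left) and of IGO2 to IGO1 (right) by day, in tanks (red, left of each pair) and vials (blue); points are arrays and bars are means of n = 3. On the left the tanks lie above the vials on all 3 days, and on the right the gap of 0.88 on day 2 is gone by day 10; the height of a ratio depends on the probe sets, so only gaps between groups are read.

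The kinases and phosphatases that act on these regulators moved in both directions, as did the genes of the whole array. Over all genes 38.2% were higher and 39.1% lower in tanks on day 2, 33.1% and 28.8% on day 5, and 32.3% and 26.4% on day 10. The list counts that follow are descriptions beside such shares. Of 14 measured genes of the Ras and protein kinase A pathway, 5 were higher and 6 lower in tanks on day 2 (median -0.10), 7 higher and 3 lower on day 5 (median 0.27) and 7 higher and 5 lower on day 10 (median 0.06). BCY1, the inhibitory subunit of protein kinase A, was higher in tanks on all 3 days, by 1.21, 0.86 and 0.64 (adjusted p = 1.75e-08, 2.65e-06 and 5.63e-05). TPK3, a catalytic subunit, was lower in tanks on day 2 (-1.64, adjusted p = 3.88e-08). TPK2, also a catalytic subunit, was higher in tanks on day 2 (0.62, adjusted p = 5.73e-05) and day 5 (0.86, adjusted p = 4.66e-06). PDE1, the low-affinity cAMP phosphodiesterase, rose by 2.45 in tanks (adjusted p = 7.51e-11) and by 0.86 in vials (adjusted p = 9.36e-06) between days 2 and 5. RGS2, which damps the glucose-sensing G protein Gpa2, rose by 3.87 in tanks (adjusted p = 6.28e-12) and by 1.42 in vials (adjusted p = 3.01e-07) over the same days. Of the 14 genes, 5 rose and 4 fell in tanks over those days (34.2% and 39.1% of all genes). In vials 6 rose and 5 fell (26.5% and 41.1%). PDE2 fell by 1.03 in vials (adjusted p = 4.61e-05) and IRA1 by 0.58 in tanks (adjusted p = 3.87e-05). IRA2 was lower in tanks on day 5 (-0.63, adjusted p = 2.11e-05) and on day 10 (-0.97, adjusted p = 2.00e-07).

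Of 10 genes of TORC1, Sch9 and Pho85, 6 rose and 3 fell in tanks between days 2 and 5 (median 0.38), and 3 rose and 2 fell in vials (median 0.02). Among all genes 34.2% rose and 39.1% fell in tanks over those days, and 26.5% and 41.1% in vials. SCH9, the kinase through which TORC1 restrains Rim15, rose by 1.93 in tanks (adjusted p = 4.00e-10) and by 0.90 in vials (adjusted p = 3.73e-06). PHO80, the cyclin of Pho85, was higher in tanks on all 3 days, by 1.37, 0.86 and 1.48 (adjusted p = 1.04e-08, 5.78e-06 and 1.43e-08). LST8, a subunit shared by both TOR complexes, was lower in tanks on day 5 (-1.86, adjusted p = 2.26e-08) and on day 10 (-2.55, adjusted p = 7.39e-10). Of 7 genes of PP2A and its regulators, the phosphatase that Igo1 and Igo2 inhibit, 4 were higher and 2 lower in tanks on day 2, 4 and 0 on day 5, and 3 and 0 on day 10 (medians 0.17, 0.30 and 0.23). CDC55, the regulatory subunit that the endosulfines target, was higher in tanks by 0.58 on day 2 (adjusted p = 9.70e-06) and by 0.37 on day 5 (adjusted p = 0.00121). The catalytic subunit genes PPH21 and PPH22 are near-identical copies whose probe sets could share signal, and were higher in tanks by 0.67 and 1.34 on day 2.

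Of 15 modulators of Msn2 and Msn4, 4 were higher and 6 lower in tanks on day 2, 9 and 2 on day 5, and 7 and 1 on day 10 (medians -0.04, 0.34 and 0.27). YGK3, a kinase of the GSK3 family, was lower in tanks on all 3 days, most on day 2 (-2.82, adjusted p = 9.69e-13). Of other kinases of that family, MCK1 was higher in tanks by 1.70, 1.03 and 1.15 on days 2, 5 and 10, and MRK1 by 0.92 on day 2. The change of MRK1 between days 2 and 5 was less positive in tanks than in vials (-0.79, adjusted p = 7.45e-04). YAK1, a kinase that phosphorylates Msn2 and Hsf1 when glucose is scarce, rose by 1.63 in tanks (adjusted p = 1.81e-09) and by 0.61 in vials (adjusted p = 1.44e-04) between days 2 and 5. MSN5, the exportin that carries Msn2 out of the nucleus, rose by 1.14 in tanks over the same days (adjusted p = 7.96e-09).

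Among 12 mRNA decay and storage factors, through which Igo1 is known to protect transcripts, 5 were higher and 6 lower in tanks on day 2, 5 and 3 on day 5, and 5 and 4 on day 10 (medians -0.23, 0.05 and 0.08). DHH1, the decapping activator with which Igo1 associates, was higher in tanks on day 2 by 1.31 (adjusted p = 6.36e-08) and rose by 2.15 in vials between days 2 and 5 (adjusted p = 3.49e-10). In tanks its mean also went up over those days, from 10.37 to 11.31. DCP1, of the decapping enzyme, was lower in tanks on day 2 (-2.00, adjusted p = 4.59e-09) and rose by 1.40 in tanks between days 2 and 5 (adjusted p = 2.19e-07).

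The known targets of the transcription factors did not all move as the factor's own mRNA did. Most of the 25 Hsf1 targets listed are chaperone or protein quality control genes. Of the 25, 2 were higher and 15 lower in tanks on day 2 (median -0.43). None were higher and 23 lower on day 5 (median -1.39), and none were higher and 24 lower on day 10 (median -1.39). HSF1 mRNA differed by 0.40 and 0.35 on those last 2 days, calls lost in 4 and 14 of 28 settings, and by 0.18 (adjusted p = 0.255) on day 10 without tank replicate 1. BTN2, which sorts misfolded proteins, was lower in tanks on day 5 (-4.07, adjusted p = 8.05e-11) and on day 10 (-4.58, adjusted p = 1.25e-11). In vials 24 of the 25 rose between days 2 and 5 and none fell (median 1.41), among them SIS1, an essential Hsp40, by 3.15 (adjusted p = 3.05e-11). In tanks 17 rose and 4 fell (median 0.48), with SIS1 up by 2.06 (adjusted p = 2.28e-09) and the disaggregase HSP104 down (-0.75, adjusted p = 4.79e-06). The difference between the scales in that change was called negative for 19 of the 25, was called positive for none and was not called for 6 (median -0.88). Among all genes it was called negative for 25.9% and positive for 32.9%. Between days 2 and 5, 26.5% of all genes rose and 41.1% fell in vials, and 34.2% and 39.1% in tanks. The list contains near-identical pairs (SSA1 and SSA2, SSA3 and SSA4, HSP82 and HSC82) whose probe sets could share signal. As with every list here, the counts are descriptions beside the background shares given above.

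Of 31 Msn2 and Msn4 targets, 16 were higher and 7 lower in tanks on day 2 (median 0.36), 12 and 8 on day 5 (median 0.08) and 14 and 8 on day 10 (median 0.18). GLC3, the glycogen branching enzyme, was higher in tanks by 0.65 on day 5 (adjusted p = 5.48e-05) and 0.82 on day 10 (adjusted p = 5.47e-06). GDB1, the glycogen debranching enzyme, was higher by 0.80 (adjusted p = 3.47e-05) and 0.78 (adjusted p = 5.02e-05) on those days. HSP12, the membrane-protecting stress protein, was lower in tanks on all 3 days (-1.19, -1.80 and -0.90). Between days 2 and 5, 5 of the targets rose and 20 fell in tanks (median -0.56), and 9 rose and 14 fell in vials (median -0.32). The shares of all genes that rose and fell were 34.2% and 39.1% in tanks, and 26.5% and 41.1% in vials. Over the same days MSN4 rose in tanks and MSN2 moved oppositely at the 2 scales. DDR2, a small multistress protein gene, rose by 1.98 in tanks (adjusted p = 2.42e-10), and TKL2, a transketolase, differed by -2.65 there (adjusted p = 8.72e-10).

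**Figure D5:**
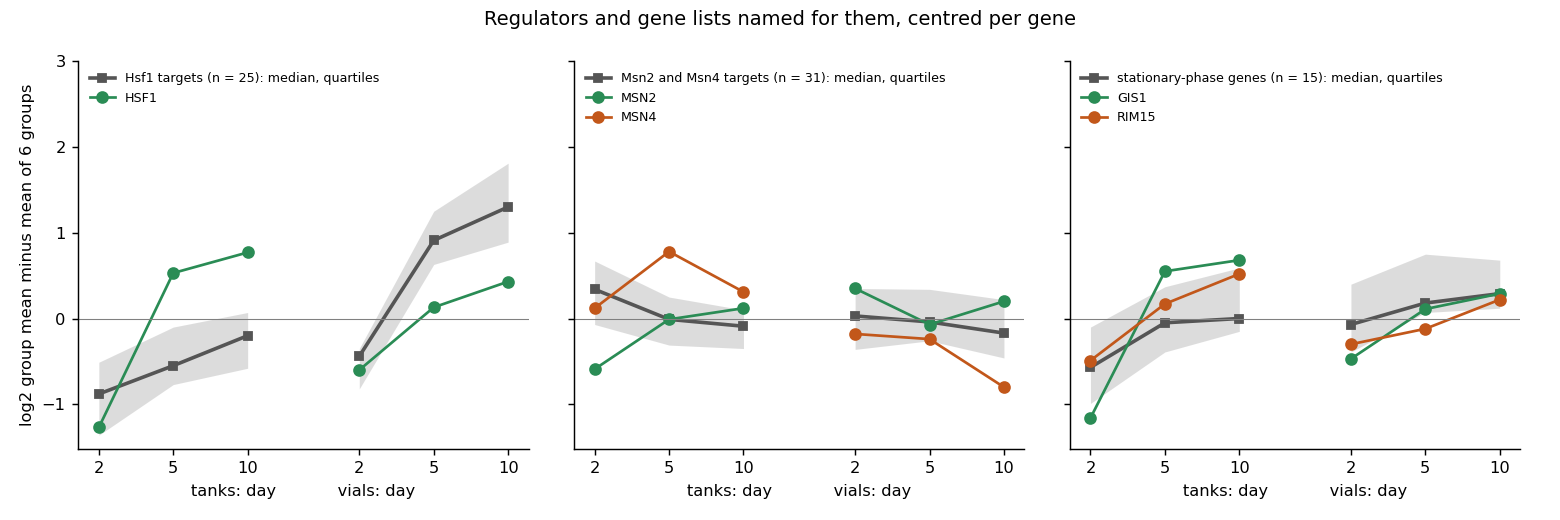
Group means on the log2 scale, each gene centred on its mean over the 6 groups (vertical axis), for tanks (left in each panel) and vials (right) by day; grey squares and bands are the median and quartiles of 25 Hsf1 targets, 31 Msn2 and Msn4 targets and 15 stationary-phase genes, and coloured points are the regulators. HSF1 reaches its highest value in tanks on day 10, whereas the Hsf1 targets reach theirs in vials on day 10.

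Of 15 stationary-phase genes, 3 were higher and 8 lower in tanks on day 2, 3 and 7 on day 5, and 3 and 7 on day 10 (medians -0.78, -0.38 and -0.25). The 3 higher ones on each day were SNZ1 and SNO1, of vitamin B6 synthesis, and SPG5, with SNO1 higher by 2.67, 1.65 and 2.05. SPG4, a gene needed in stationary phase, was lower in tanks on all 3 days (-4.02, -2.10 and -1.30) and rose in tanks by 2.70 between days 2 and 5 (adjusted p = 1.36e-09) and by 1.53 between days 5 and 10 (adjusted p = 1.36e-05).

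Of 19 other transcription factors of stress and quiescence, 16 rose and 1 fell in tanks between days 2 and 5 (median 1.55), and 14 rose and none fell in vials (median 0.97). The shares of all genes that rose and fell over those days were 34.2% and 39.1% in tanks, and 26.5% and 41.1% in vials. XBP1, a repressor of growth genes in quiescence, rose by 2.60 in tanks (adjusted p = 6.49e-09) and by 2.06 in vials (adjusted p = 1.61e-07). USV1, a zinc-finger factor, rose by 2.75 in vials (adjusted p = 1.23e-09), and MGA1, a protein similar to the heat shock factor, by 2.53 in tanks (adjusted p = 2.66e-10). At the other scale the means also went up, from 10.20 to 12.00 for USV1 in tanks and from 10.96 to 12.69 for MGA1 in vials. HSF1 and GIS1 thus moved in the direction that most of these 19 factors took. Between the scales the 19 divided, with 5 higher and 11 lower in tanks on day 2 and 8 higher and 4 lower on both later days.

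Set against all genes, the regulators were not exceptional in the range of their group means. Some single differences ranked higher among the signed differences of all genes. For tanks, day 5 against 2, HSF1 and GIS1 stood at the 96.5 and 95.8 percentile. For tanks against vials, MSN4 stood at 95.2 on day 5 and 96.0 on day 10. The range of the 6 group means was 2.27 for IGO1 and 2.04 for HSF1, at the 83.6 and 77.9 percentile of all genes, then 1.84 for GIS1 and 1.57 for MSN4. RIM15, IGO2 and MSN2 had ranges of 1.01, 0.96 and 0.94, below the median of 1.40. Besides GIS1, the closest patterns to HSF1 were those of SKG1 (0.08 root mean square log2 distance over 6 group means) and RPC31, a subunit of RNA polymerase III (0.10). For GIS1 they were SKG1 and the PAS kinase gene PSK1 (0.12 each), for MSN2 KEL2 (0.07), UTP18 (0.08) and ZDS1 (0.09), and for RIM15 ARP9 (0.08), ADE2 (0.09) and AKL1 (0.10). ZDS1, a regulator of PP2A with Cdc55, is the only gene of the lists above among these. MSN4 was nearest to ASH1, CCW14 and DBF20 (0.13 each), IGO1 to ESA1 (0.12), POP6 (0.13) and RPL33B (0.15), and IGO2 to CDC36 (0.07), RPC10 (0.08) and SPO14 (0.09). MSN2 was not among the 3 genes closest to MSN4, nor IGO2 among those closest to IGO1.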

How the data were processed

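Total RNA (100 ng a sample) was amplified and 7.5 µg of labelled cRNA hybridised to Affymetrix 3′ expression arrays, per the labels' protocols. The submitters' processing notes name RMA in the Affymetrix Expression Console; versions and a genome build were not given in the sources used here. What the authors deposited are linear intensities, 1 per probe set and array, between 4.79 and 39396. The planned analysis had taken them to be log2 values, and log2 was therefore computed here.

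Of 10928 probe sets, 5498 stood for 5449 S. cerevisiae genes. Of 47 genes with several, the probe set with the highest mean was kept. Background was the 95th percentile of 1746 probe sets of genes outside the S. cerevisiae reference (log2 4.48). Left out were 166 control probe sets, 1 listed with several genes and 3517 without a listed gene. Gene names and coding lengths came from the RefSeq R64 table.

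All 18 arrays were fitted in limma 3.58.1 (R 4.3.3; 6 group means, eBayes, 12 residual degrees of freedom), with Benjamini-Hochberg adjustment over all 5449 genes and a threshold of 0.05. Paralogue ratios were tested by exact permutation. Precision is limited by the 3 arrays a group. On simulated data for tanks against vials on day 2 (5449 genes), 58%, 94%, 100% and 100% of 50 genes each were called at log2 changes of 0.5, 1, 2 and 4, with 9 false calls. Far fewer genes changed in the simulation than the 77.3% called in the real comparison. Its rates therefore need not be those of the reported fit.

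The members, the gene lists and the tests were chosen with earlier results of these data known. Named were all 7 members; of each list, up to 3 called genes a direction and comparison by size, above background and without overlap between groups; and the 3 genes nearest to each member by root mean square distance of centred group means. Deviations of same-numbered arrays from their group means had correlations of -0.47 to 0.76 over 45 pairs (median -0.04, 15 over 0.1). Tanks of days 5 and 10 gave -0.47, 0.38 and 0.76 for replicates 1, 2 and 3. The labels do not say whether a tank or vial was sampled on several days, and these correlations cannot exclude it. The numbers were not taken to pair samples. Alternatives were 2 other normalizations, another probe set rule, a filter on dim genes, a trend and robust prior, array weights, a fixed and a random replicate block, fits of only the groups compared, removal of a trend on coding length (lowess, span 0.3), and leaving out each array.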

Additional observations from a re-analysis of the deposited data

Results flagged for a closer look

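The change with time differed between tanks and vials, by a test of the difference itself in limma, for 6 of the 7 regulators. From day 2 to day 5 the change in tanks exceeded that in vials by 1.13 for GIS1 (adjusted p = 1.97e-05), 1.06 for HSF1 (adjusted p = 3.02e-04), 1.00 for MSN2 (adjusted p = 4.65e-05), 0.72 for MSN4 (adjusted p = 4.11e-04), 0.49 for RIM15 (adjusted p = 0.00846) and 0.49 for IGO1 (adjusted p = 0.0389). The IGO1 call was lost in 10 of 28 alternative settings, with 0.27 (adjusted p = 0.18) when a trend on coding length was removed. From day 2 to day 10 the excess was 1.08 for GIS1 (adjusted p = 2.42e-05), 1.01 for HSF1 (adjusted p = 4.10e-04), 0.86 for MSN2 (adjusted p = 1.67e-04), 0.81 for MSN4 (adjusted p = 1.24e-04), 0.80 for IGO1 (adjusted p = 0.00197) and 0.49 for RIM15 (adjusted p = 0.00746). All 12 values are positive, and both sets use the same day 2 arrays. Over all genes 32.9% and 33.7% were called in that direction. No group held 4 or more arrays, so single arrays were not screened for outlying values.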

How the results depend on the processing

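The 84 member values were recomputed under 10 alternative settings and with each of the 18 arrays left out, 2352 values in all. Direction and side of the threshold were kept in 2225, a call was lost in 67 and gained in 23, and the direction turned in 37. Of the 57 values called, 46 kept the call under every alternative run. Repeating quantile normalization moved the median of all genes by between -0.12 and 0.14, depending on the comparison.

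With the trend on coding length removed, 1 called value turned: IGO2 in tanks against vials on day 2 (0.01). The values that turned without having been called under that setting were MSN2 tanks against vials on day 5 (-0.06), MSN4 in vials, day 5 against 2 (0.11), MSN2 in vials, day 10 against 2 (0.06), IGO2 in tanks, day 10 against 5 (-0.03), and RIM15 in the scale difference of the change over days 5 to 10 (-0.03). With array weights those that turned were MSN4 in vials, day 5 against 2 (0.09), GIS1 in tanks, day 10 against 5 (-0.01), the IGO2 scale difference over days 2 to 5 (0.05) and that of RIM15 over days 5 to 10 (-0.08). Centring arrays gave 0.03 for MSN4 in vials and 0.00 for RIM15, and repeated quantile normalization gave -0.01 for RIM15. The cause was not tested.

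Leaving out 1 array turned only values that were not called. In tanks against vials MSN2 ran between 0.00 and 0.13 on day 5 and between -0.18 and 0.00 on day 10. In vials MSN4 ran between -0.17 and 0.04 for day 5 against 2, and IGO1 between -0.02 and 0.11 for day 10 against 5. The scale difference over days 2 to 5 ran between -0.12 and 0.06 for IGO2, and that over days 5 to 10 between -0.22 and 0.11 for HSF1, -0.01 and 0.20 for MSN4, -0.12 and 0.08 for GIS1, and -0.07 and 0.11 for RIM15. Between days 5 and 10 the members called ran between 1 and 3 in vials and between 1 and 4 in tanks, and the genes called for the scale difference between 176 (without vial replicate 2 of day 10) and 706 (without tank replicate 2 of day 10).

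The fit with replicate number as a block (replicate block) moved no count of members called by over 1.5 times. It lost the calls of HSF1 in tanks against vials on day 10 (adjusted p = 0.061) and IGO2 in tanks, day 10 against 2 (adjusted p = 0.0592), and gained that of MSN4 in tanks, day 10 against 2 (adjusted p = 0.0461). The random block had a consensus correlation of -0.02.

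Array weights, which gave tank replicate 2 of day 10 a weight of 0.16, raised the count of members called to 5 in vials, day 10 against 5, and to 1 for the scale difference over days 5 to 10. The counts over all genes were then 3019 (1674 as reported) in vials, 3257 (2123) in tanks and 1690 (268) for the scale difference. Fitting only the groups compared gave 1 member and 1156 genes in tanks, day 10 against 5, and 146 genes for the scale difference.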
